A study of Mus musculus with 3 samples.

Results

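The genes described here are 10 genes of the urea cycle and of hepatic glutamine metabolism. The rule lists them by symbol, as Cps1, Otc, Ass1, Asl, Arg1, Nags, Slc25a15, Slc25a13, Glul and Gls2, and all 10 of these were found among the 37620 Ensembl gene identifiers listed for each library. Their levels came from mRNA sequencing of passage 1 primary hepatocytes of C57BL/6 mice, the metabolic cells of the liver, which lose part of their liver programme once plated. Cells had been given either the solvent DMSO (1 library) or tauroursodeoxycholic acid, abbreviated TUDCA, a taurine-conjugated bile acid (2 libraries, labelled 100 mM for 24 h, a dose whose unit stands only in the labels and may be an error). The labels name no time for DMSO, so TUDCA and a difference in culture time cannot be told apart. All 3 cultures shared gelatin-coated plates and a medium with serum, insulin and antibiotics, and neither the age nor the sex of the mice is stated.

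The urea cycle turns ammonia, which is toxic, into urea for excretion. Carbamoyl phosphate synthetase 1 (Cps1), switched on by the N-acetylglutamate that Nags makes, and ornithine transcarbamylase (Otc) work inside mitochondria. Argininosuccinate synthase (Ass1), argininosuccinate lyase (Asl) and arginase 1 (Arg1) complete the cycle in the cytosol, and the carriers Slc25a15 and Slc25a13 move ornithine, citrulline and aspartate across the inner mitochondrial membrane. In the liver lobule the cycle and the glutaminase Gls2, which releases ammonia from glutamine, lie mainly upstream near the portal vein. Glutamine synthetase (Glul), which fixes remaining ammonia into glutamine, sits in a narrow ring of cells around the central vein.

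Levels are given in RPKM, reads scaled to the length of the gene and to the depth of the library, so genes can be compared with each other. The libraries rested on 9757547 to 10774289 reads. No member was changed by the main test, limma on log2(RPKM + 1) with a Benjamini-Hochberg adjusted p under 0.05, although 2 members (Cps1 and Nags) had an unadjusted p below 0.05 and voom on recovered reads called 1 (Cps1). An unadjusted p below 0.05 was found for 10.8% of all genes tested. Across the series the same test called 2.65% of the 11300 genes that averaged at least 1 RPKM, and all 10 members passed that filter. The rule of size, a log2 difference of 1 or more on the same side of DMSO for each TUDCA library, took in 0 members and 1.05% of the genes tested. Differences are written as TUDCA minus DMSO on the log2(RPKM + 1) scale, which understates changes of low genes. The series speaks of independent experiments but does not tie libraries to them, or say whether the TUDCA libraries came from separate cultures or mice, so the spread between them may be technical, and a permutation of 1 against 2 libraries cannot give a two-sided p below 0.333.

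Before the values, the promoters of the lowest member and of the 2 highest are shown, because the members differed far more in level from each other than between treatments. RefSeq promoter windows (assembly GRCm38.p6, 250 bases before to 50 bases after the start of the gene) were matched by symbol for 6 members, Otc, Ass1, Nags, Slc25a15, Slc25a13 and Glul. Cps1, Asl, Arg1 and Gls2 had no entry. The windows printed are Otc at chrX:10252055-10252354, Ass1 at chr2:31470020-31470319 and Glul at chr1:153899679-153899978, all on the plus strand. With the build behind the RPKM values not given in the sources used here, these positions belong to the RefSeq table only. Each sequence is written 5′ to 3′, and capitals mark matches to the motifs named after it.
Otc: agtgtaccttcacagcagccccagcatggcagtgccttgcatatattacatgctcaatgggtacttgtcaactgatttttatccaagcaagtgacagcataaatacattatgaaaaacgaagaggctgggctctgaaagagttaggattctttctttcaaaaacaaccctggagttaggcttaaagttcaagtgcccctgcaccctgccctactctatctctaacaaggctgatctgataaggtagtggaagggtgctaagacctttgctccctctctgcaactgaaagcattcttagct
Ass1: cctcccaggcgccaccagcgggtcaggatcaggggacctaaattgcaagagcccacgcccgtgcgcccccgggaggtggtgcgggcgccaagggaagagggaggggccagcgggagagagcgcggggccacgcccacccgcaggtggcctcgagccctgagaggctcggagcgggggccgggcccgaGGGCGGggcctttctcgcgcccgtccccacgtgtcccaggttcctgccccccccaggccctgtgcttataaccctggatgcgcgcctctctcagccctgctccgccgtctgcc
Glul: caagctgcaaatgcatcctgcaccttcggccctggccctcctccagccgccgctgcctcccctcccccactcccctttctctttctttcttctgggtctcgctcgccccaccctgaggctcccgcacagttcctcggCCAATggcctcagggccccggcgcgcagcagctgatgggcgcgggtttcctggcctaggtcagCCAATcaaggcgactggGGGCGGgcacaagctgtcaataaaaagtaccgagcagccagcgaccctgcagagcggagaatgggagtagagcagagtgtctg

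The Otc window was 44.3% G and C with 1 CG dinucleotide, against 74% with 27 for Ass1 and 64.3% with 17 for Glul. Level and composition did not go together throughout, since the low Slc25a15 had 60.7 and 79% at its 2 start sites (15 and 51 CG) and Slc25a13 had 65% (17 CG). The median over all 32851 windows of the table was 52.7% with 7 CG dinucleotides. Both strands were searched for the TATA box letters TATAAA, the cAMP response element TGACGTCA, the CCAAT box, the C/EBP motif TTGCNNAA, the glucocorticoid receptor motif TGTTCT and the GC box core GGGCGG. The Otc window held none of these letters. The Ass1 window held GGGCGG once, and the Glul window held GGGCGG once and CCAAT at 2 places. Among windows not printed, GGGCGG also occurred in those of Nags and Slc25a15, and CCAAT in that of Slc25a13. Matches and level thus did not go together throughout, since Slc25a15 was low. GGGCGG occurs in 35.7% and CCAAT in 37.4% of all windows, and a match is a description of the sequence only.

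The mitochondrial enzymes of the cycle were at the bottom of the members in every library. Cps1 (ENSMUSG00000025991) stood at 2.62 RPKM in DMSO and at 5.79 and 6.08 RPKM in TUDCA replicates 1 and 2. Otc (ENSMUSG00000031173) stood at 2.23, 3.32 and 2.81 RPKM in the same order. These levels lay above 15.2% of the genes tested for Cps1 and 12.9% for Otc in DMSO. In TUDCA replicates 1 and 2 the shares were 26.0 and 28.6% for Cps1 and 15.9 and 15% for Otc. Both enzymes were thus low among the genes that passed the filter, and the genes below the filter are not counted in these shares. The cytosolic enzymes that follow them were much higher. Ass1 (ENSMUSG00000076441) had 368.9 RPKM in DMSO and 304.6 and 347.7 RPKM after TUDCA, above 97.4, 97.1 and 97.4% of the genes tested. Asl (ENSMUSG00000025533) had 105 RPKM in DMSO and 96.7 and 119.2 RPKM after TUDCA. Arg1 (ENSMUSG00000019987), which splits arginine into urea and ornithine, had 17.7, 18.2 and 18.5 RPKM.

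Steps of one cycle thus differed in level by up to 2 orders of magnitude. In DMSO the Ass1 level was 140.6 times that of Cps1, and in the TUDCA libraries 52.6 and 57.2 times. Ass1 exceeded Arg1 by a ratio of 20.9 in DMSO and 16.7 and 18.8 with TUDCA. Summed over both mitochondrial enzymes the level was 4.86 RPKM in DMSO and 9.11 and 8.89 RPKM after TUDCA, against sums of 491.6, 419.5 and 485.4 RPKM for the 3 cytosolic enzymes. Ass1 alone made up 46.0% of the summed level of the 10 members in DMSO and 40.9 and 44.5% with TUDCA. The 10 members together summed to 802.3 RPKM in DMSO and 744.2 and 781.1 RPKM after TUDCA.

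**Figure D1:**
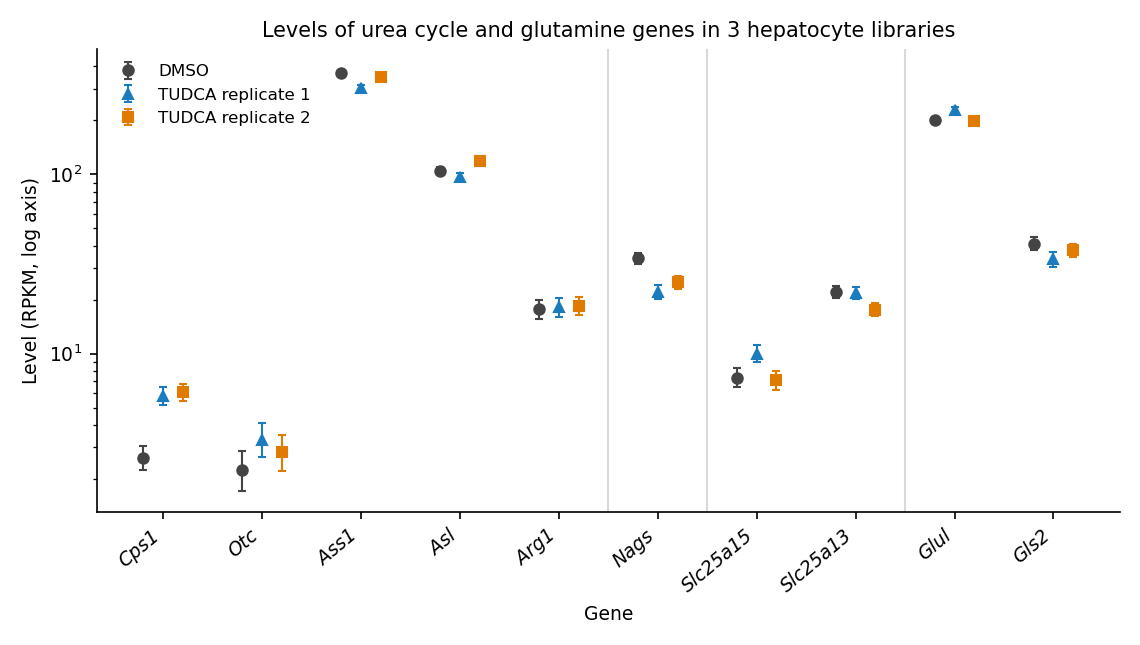
Level of each member in RPKM on a log axis, 1 symbol per library, with bars for the 95% Poisson interval of the reads; grey lines separate the cycle enzymes, Nags, the carriers and the glutamine enzymes. Cps1 and Otc lie below 7 RPKM in all 3 libraries while Ass1 and Glul lie near or above 200 RPKM, and for Cps1 the DMSO symbol lies below both TUDCA symbols.

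Cps1 showed the largest difference from DMSO of the 10 members. From 2.62 RPKM in DMSO (157 reads) it stood at 5.93 ± 0.20 RPKM (SD, n = 2) with TUDCA, on 314 and 357 reads, a ratio of means of 2.26. The log2 differences were 0.91 and 0.97 for TUDCA replicates 1 and 2. Both are taken from the same DMSO library, so their closeness shows only that the TUDCA levels were alike. The limma estimate was 0.94 ± 0.30 (SE) with a 95% interval of 0.35 to 1.52 and an adjusted p of 0.0587, just above the threshold. The 95% Poisson interval of the reads was 2.23 to 3.07 RPKM in DMSO, 5.17 to 6.47 in TUDCA replicate 1 and 5.46 to 6.74 in TUDCA replicate 2. These intervals cover counting error only, and how often they part between DMSO and TUDCA over all genes tested was not counted. The summed level of 10 hepatocyte markers lay the same way, at 24303 RPKM in DMSO and 28624 and 29331 RPKM after TUDCA. Without Fgb, the 1 marker called, the sums were 23389, 26094 and 27446 RPKM. Much of each sum came from Hpx alone, at 11923, 12861 and 15595 RPKM. By log2 fold change 9 of the 10 markers were positive and 1 negative, with a median of 0.18. Over all 11300 genes tested 6314 were positive and 4986 negative, with a median of 0.04. The part of hepatocyte content in the Cps1 value was not tested. In bulk RNA fewer cells of a type and less RNA per cell cannot be told apart. Settings of the test decided this call. Cps1 was called higher with a pseudocount of 0.1 (adjusted p = 0.0448), with robust estimation (adjusted p = 0.0441), without the variance trend (adjusted p = 0.0342) and with voom on the recovered reads (adjusted p = 0.00674). Those settings called 2.89, 2.59, 2.32 and 2.36% of all genes tested, respectively. Quantile normalization, TPM, median centring and the fit without a filter did not call it (adjusted p = 0.148, 0.0762, 0.0741 and 0.55, respectively).

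Otc followed Cps1 in direction but with a smaller difference. Its reads were few, 64 in DMSO and 86 and 79 with TUDCA. The Poisson intervals of 1.72 to 2.85 RPKM in DMSO, 2.65 to 4.10 in TUDCA replicate 1 and 2.22 to 3.50 in TUDCA replicate 2 overlapped. The log2 fold change was 0.33 ± 0.31 with an interval of -0.28 to 0.93 (limma adjusted p = 0.830), which includes no difference and a change nearly as large as that estimated for Cps1. Whether Cps1 and Otc differed in their response was not tested. The ratio of Cps1 to Otc was 1.17 in DMSO and 1.75 and 2.16 with TUDCA.

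Nags (ENSMUSG00000048217), whose product is the obligate activator of Cps1, lay on the other side. It had 34.1 RPKM in DMSO (791 reads) and 22.1 and 24.9 RPKM after TUDCA (464 and 567 reads), so DMSO was above both TUDCA libraries. The Poisson intervals, which cover counting error only, were 31.8 to 36.6 RPKM for DMSO and 20.2 to 24.2 and 22.9 to 27.1 RPKM for TUDCA. The log2 fold change of -0.52 ± 0.24 had an interval of -0.996 to -0.05 and did not pass (limma adjusted p = 0.374). No setting tried called Nags. In DMSO the Nags level was 13.0 times that of Cps1, and with TUDCA 3.82 and 4.10 times. An antisense gene overlaps Nags in GENCODE M21, but it was listed with 1 read in each library.

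For the 3 cytosolic enzymes no difference passed the test under any setting. Ass1 had a log2 fold change of -0.18 ± 0.20 and an interval of -0.57 to 0.21. DMSO was its highest library, but the TUDCA pair alone spanned 304.6 to 347.7 RPKM. For Asl the DMSO level lay between the TUDCA levels, and the estimate was 0.03 ± 0.21 with an interval of -0.38 to 0.44. Arg1 was the most even member, with 17.7 RPKM against 18.3 ± 0.2 with TUDCA, an estimate of 0.05 ± 0.26 and an interval of -0.45 to 0.55. The adjusted p values were 0.875, 0.991 and 0.990 for Ass1, Asl and Arg1 (limma). The estimates of Asl and Arg1 lay so near 0 that median centring, which moved every gene by -0.074, and for Arg1 quantile normalization, turned their sign.

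The mitochondrial carriers showed no common direction. Slc25a15 (ENSMUSG00000031482), which exchanges ornithine for citrulline, had 7.34 RPKM in DMSO and 10.0 and 7.12 RPKM after TUDCA. TUDCA replicate 1 was above DMSO and replicate 2 just below it. Slc25a13 (ENSMUSG00000015112), the aspartate and glutamate carrier citrin that exports aspartate for Ass1, had 22.1 RPKM in DMSO and 21.7 and 17.6 RPKM after TUDCA, and here replicate 2 was the lowest library. The estimates were 0.18 ± 0.28 (interval -0.37 to 0.74) and -0.17 ± 0.25 (interval -0.66 to 0.32). For both genes the TUDCA libraries differed from each other by more than their mean differed from DMSO.

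Glul (ENSMUSG00000026473) was the second highest member. It had 201.1 RPKM in DMSO and 228.2 and 199.5 RPKM after TUDCA, and DMSO lay between the TUDCA libraries. Its estimate was 0.09 ± 0.20 with an interval of -0.31 to 0.48 (limma adjusted p = 0.962). Gls2 (ENSMUSG00000044005) had 41.1 RPKM in DMSO and 33.6 and 37.7 RPKM after TUDCA, an estimate of -0.20 ± 0.23 with an interval of -0.66 to 0.25 (limma adjusted p = 0.880). The enzyme that makes glutamine was thus above the liver enzyme that breaks it down in every library, by ratios of 4.89 in DMSO and 6.80 and 5.29 with TUDCA. Exons of Gls2 overlap those of Spryd4 on the opposite strand in GENCODE M21. Spryd4 was listed at 21.7, 18.7 and 22.6 RPKM, and whether reads were counted by strand is unknown, so reads of this pair cannot be told apart. Teddm2 and Mir8114 overlap Glul, and Teddm2 was listed with 2, 1 and 1 reads.

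**Figure D2:**
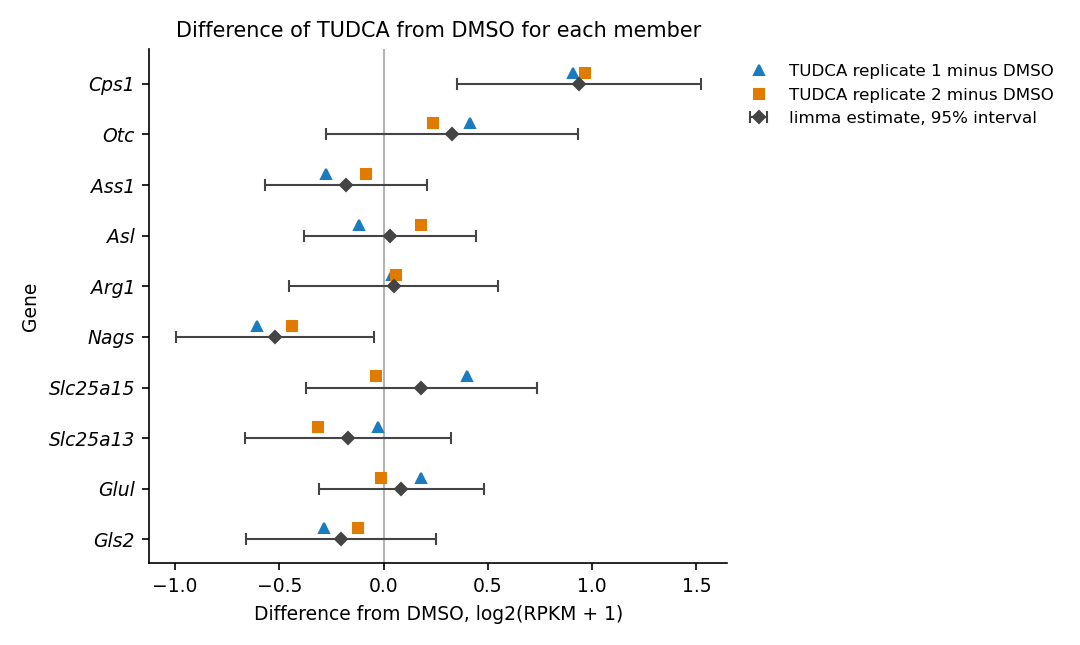
Difference from DMSO on the log2(RPKM + 1) scale for each member, with triangles and squares for the TUDCA libraries and diamonds with bars for the limma estimate and its 95% interval. Only the intervals of Cps1 and Nags leave out 0, on opposite sides of it, and neither gene passed the adjusted threshold; for Asl, Slc25a15 and Glul the TUDCA libraries fall on either side of DMSO.

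Taking the 10 members as a set, 6 estimates were positive and 4 negative, with a median of 0.04. Over all 11300 genes tested the median was also 0.04. The DMSO level was below both TUDCA levels for 3 members (Cps1, Otc and Arg1), above both for 4 (Ass1, Nags, Slc25a13 and Gls2) and between them for 3 (Asl, Slc25a15 and Glul). DMSO thus lay outside the TUDCA range for 7 of 10 members, while this was so for 70.9% of all genes tested, a like share. The order of levels was Ass1, Glul, Asl, Gls2, Nags, Slc25a13, Arg1, Slc25a15, Cps1 and Otc in DMSO and in TUDCA replicate 1. In TUDCA replicate 2 Arg1 (18.5 RPKM) and Slc25a13 (17.6 RPKM) changed places. The Poisson intervals of some neighbours in this order overlapped: Cps1 and Otc in DMSO, Nags, Slc25a13 and Arg1 from one to the next in TUDCA replicate 1, and both Arg1 with Slc25a13 and Slc25a15 with Cps1 in TUDCA replicate 2.

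Members were set beside 4 paralogs that do the same or a like reaction, of which 2 were tested and 1 was called. Arg2, the mitochondrial arginase, rose from 0.650 RPKM in DMSO to 2.58 and 2.45 RPKM after TUDCA (10, 36 and 37 reads). Its log2 fold change was 1.09 ± 0.32 (limma adjusted p = 0.0253, and 0.0571 with quantile normalization). Arg2 reached the filter of 1 RPKM only through the TUDCA libraries. The Arg1 share of both arginases was 96.5% in DMSO and 87.6 and 88.3% with TUDCA. Slc25a12, the paralog of citrin, had 28.0, 25.7 and 25.2 RPKM, and Slc25a13 held 44.1, 45.8 and 41.1% of their sum. The other ornithine or basic amino acid carriers were low, with Slc25a2 at 0.0690, 0.0761 and 0.141 RPKM and Slc25a29 at 1.04, 0.479 and 0.618 RPKM, and neither reached the filter. Slc25a15 held 86.9, 94.7 and 90.4% of the sum of these 3 carriers.

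**Figure D3:**
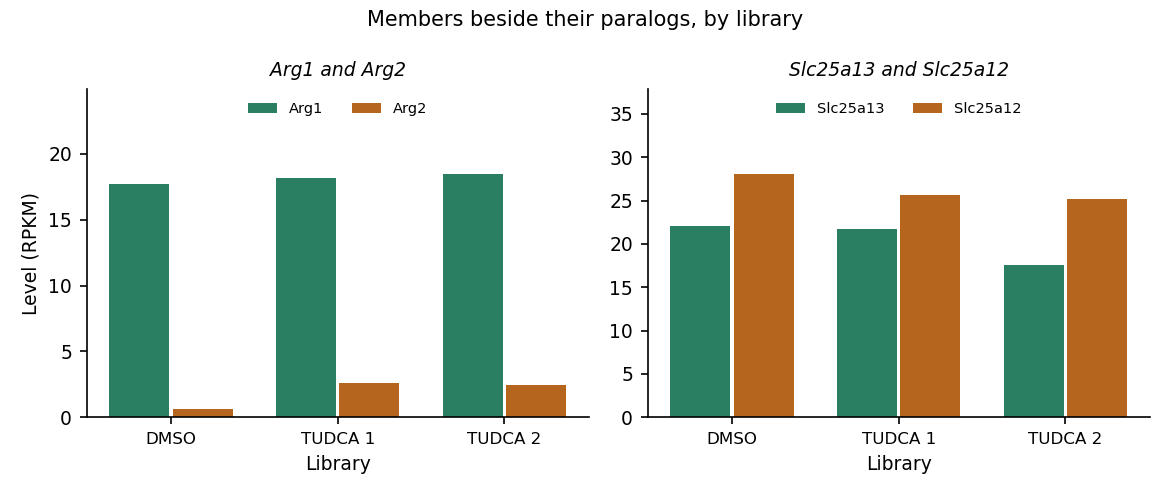
Levels in RPKM of Arg1 and Slc25a13 beside their paralogs Arg2 and Slc25a12 in each library (bars start at 0, 1 library each, no error shown). Arg1 stays near 18 RPKM while Arg2 is at 0.650 RPKM in DMSO and near 2.5 RPKM after TUDCA; Slc25a13 is below Slc25a12 in all 3 libraries.

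Around the cycle, 7 lists of pathway genes held 105 distinct genes, of which 89 were tested, 8 were called higher with TUDCA and 1 lower. Over all 11300 genes tested, 200 were called higher and 99 lower (2.65% called). Of the list genes called higher, Arg2, Nos2 and Pck1 reached the filter only through the TUDCA libraries. How many of the 200 did so was not counted. The lists were chosen with earlier results of these data known, so these counts are a description and no test of the pathway. Among 18 tested genes that supply nitrogen, bicarbonate or aspartate or carry products, 2 were higher and none lower (median 0.03). Gpt2, the mitochondrial alanine aminotransferase, rose from 110.3 to 251.1 ± 45.5 RPKM (limma adjusted p = 2.0e-06, log2 fold change 1.17 ± 0.20). Nos2, the inducible nitric oxide synthase that takes arginine, rose from 0.244 to 1.20 and 2.37 RPKM (11, 49 and 105 reads, limma adjusted p = 0.0209), and it too reached the filter only through TUDCA. Glud1, Mdh2 and Got2, the most abundant others, were at 509.5, 406.0 and 275.6 RPKM in DMSO and at 626.7 ± 162.9, 310.6 ± 32.3 and 228.2 ± 14.1 RPKM after TUDCA, not called. Nos2 and arginase are also made by macrophages. The summed level of 10 macrophage and Kupffer cell markers was 243.6 RPKM in DMSO and 230.7 and 240.3 RPKM after TUDCA, with 0 of 8 tested markers called (limma, 0 at an unadjusted p below 0.05, voom 0), none of the 10 at 0 in all libraries and Cd68 the most abundant at 170.4, 154.3 and 169.4 RPKM. Without Cd68 the sum was 73.2, 76.5 and 70.9 RPKM, and 5 of the 8 tested markers had a positive log2 fold change (median 0.22). The part of such cells in the Arg2 and Nos2 values was not tested.

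Of 19 tested genes that use glutamine or belong to the proline and ornithine branch, 1 was higher and 1 lower (median -0.12). Aldh4a1, which makes glutamate in proline breakdown, rose from 10.9 to 20.8 ± 3.2 RPKM. Odc1, which takes ornithine into polyamines, fell from 221.2 to 137.8 ± 1.7 RPKM (log2 fold changes 0.87 ± 0.26 and -0.68 ± 0.21, limma adjusted p = 0.0343 and 0.0387). Oaz1, Qars and Asns had 344.7, 158.2 and 170.5 RPKM in DMSO and 314.9 ± 21.6, 146.5 ± 22.4 and 118.6 ± 14.9 RPKM after TUDCA, not called. Among 13 tested genes of the amino acid carrier list, Slc7a2 rose from 13.3 to 24.4 ± 0.9 RPKM (limma adjusted p = 0.0415, log2 fold change 0.83 ± 0.25) and none was called lower. Slc7a2 is the cationic amino acid carrier that brings arginine and ornithine into hepatocytes. Of the 13 estimates 5 were positive and 8 negative (median -0.23), and voom called 2 genes of this list. Slc3a2 had 400.3 and 286.9 ± 34.8 RPKM, and the glutamine carriers Slc38a4 and Slc38a3 had 162.4 and 158.5 ± 8.4 RPKM and 66.7 and 69.6 ± 2.1 RPKM, not called. Quantile normalization, median centring and the fit without the trend each ended the calls of Aldh4a1, Odc1 and Slc7a2.

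Among 17 tested regulators known to act on urea cycle genes, 2 were higher and none lower (median 0.18). Hnf4a, a nuclear receptor of the hepatocyte programme, rose from 115.0 to 194.9 ± 5.2 RPKM (limma adjusted p = 0.0123, log2 fold change 0.76 ± 0.21), a call lost with median centring (adjusted p = 0.153) and without the trend (adjusted p = 0.160). Cebpd rose from 45.1 to 73.2 and 104.1 RPKM (limma adjusted p = 0.00129). Cebpa and Cebpb, of the same family, had 85.1 and 57.0 RPKM in DMSO and 96.6 ± 3.1 and 55.3 ± 11.8 RPKM after TUDCA, and the glucagon receptor Gcgr had 33.8 and 39.0 ± 4.9 RPKM, not called. In the list of pericentral and Wnt pathway genes, 0 of 11 tested were called by limma or voom (median 0.34). An unadjusted limma p below 0.05 was found for 4 of these 11, beside 10.8% of all genes tested. Ctnnb1, Cyp2e1 and Cyp1a2 of this list had 264.0, 175.7 and 10.9 RPKM in DMSO and 320.3 ± 56.8, 233.4 ± 4.9 and 17.0 ± 3.4 RPKM after TUDCA. Of 11 periportal genes only Pck1 was called, higher, from 0.354 to 5.03 and 10.6 RPKM on 7, 90 and 206 reads (median of the list 0.28), and it too reached the filter only through TUDCA. Fbp1, Cyp2f2 and Cdh1 had 117.1, 122.5 and 79.4 RPKM in DMSO and 120.7 ± 5.8, 99.8 ± 5.4 and 91.8 ± 21.5 RPKM after TUDCA. All 9 calls of these lists were lost in the fit without a filter, which called 0 genes of the series (limma, 1696 at an unadjusted p below 0.05).

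**Figure D4:**
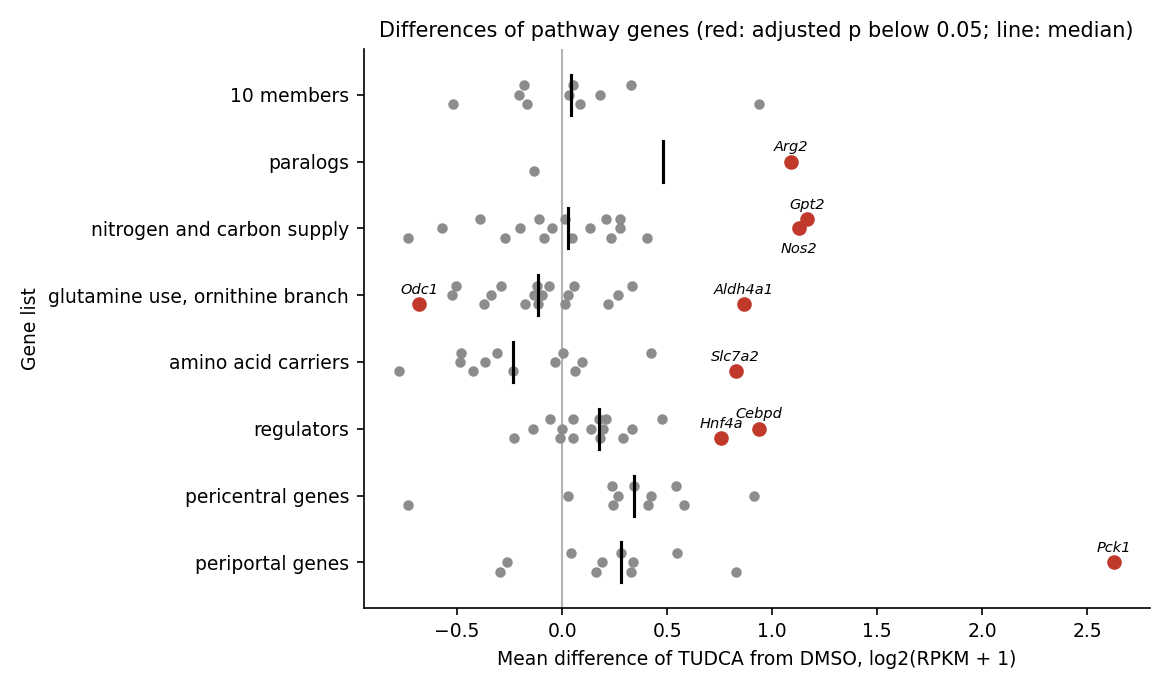
Mean difference of TUDCA from DMSO on the log2(RPKM + 1) scale for each tested gene of the members and of 7 pathway lists, with red points for adjusted p below 0.05 and a black line at each list's median. The row of pericentral genes also holds Wnt pathway genes. None of the 10 members is red; the red points are Arg2, Gpt2, Nos2, Aldh4a1, Slc7a2, Cebpd, Hnf4a and Pck1 to the right and Odc1 to the left.

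The libraries carried the markers of their labelled cell type. All 10 hepatocyte markers were measured, Hpx being the most abundant at 11923, 12861 and 15595 RPKM. Fgb, a fibrinogen chain named here after its values were seen, was the 1 called, at 914.3, 2530 and 1885 RPKM (limma adjusted p = 4.3e-08), and 3 of the 10 had an unadjusted p below 0.05. Markers of endothelial cells, stellate cells and leukocytes were low, and of these 3 of 8, 5 of 9 and 2 of 8 were tested, with 0 called by limma or voom and 0 at an unadjusted p below 0.05. The 8 endothelial markers summed to 3.74, 6.09 and 5.05 RPKM (Pecam1 highest by its mean over the 3 libraries), 9 stellate cell and fibroblast markers to 13.2, 11.2 and 9.93 RPKM (Dcn highest) and 8 leukocyte markers to 11.95, 18.3 and 11.9 RPKM (S100a9 highest, 2 at 0 in all libraries). The 7 cholangiocyte markers summed to 437.1, 821.2 and 647.6 RPKM, mostly from Spp1, the 1 marker of this list that was called, at 387.5, 767.5 and 578.2 RPKM (limma adjusted p = 0.00464), while Cftr was at 0 in all libraries.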

How the data were processed

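Per the labels' protocols, mRNA was captured on oligo(dT) beads, copied with random hexamers and nebulised. The authors deposited 1 table of RPKM values per library. CASAVA, TopHat2 2.0.7, Bowtie2 and HTSeq are named in the submitters' processing notes, with build, annotation and strand setting not given in the sources used here. Symbols came from GENCODE M21 (32897 of 37620 identifiers) and 167 of 168 list symbols matched, 1 through a RefSeq synonym.

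Genes averaging at least 1 RPKM (11300) were fitted as log2(RPKM + 1) with limma 3.58.1 in R 4.3.3 (lmFit, eBayes with trend, Benjamini-Hochberg). The residual degree of freedom (1) came from the TUDCA pair, DMSO was assumed to vary like it, and prior degrees of freedom were infinite, so each gene took the common spread at its level and not its own. Whole reads were recovered for all 19146 genes above 0, within 1e-07 reads, as the smallest numbers fitting all libraries (95.7 to 95.8% of the totals). True reads can be a multiple of these, with narrower intervals. Exact Poisson intervals are at 95%.

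Members and lists were chosen with earlier results of these data known. Named genes are the members, their paralogs (1 is not reported here), the called genes and 3 most abundant others of each list, and the top marker of each cell type. The fit was tested on simulated reads drawn with the same spread for DMSO and TUDCA. Whether the DMSO library varies like the TUDCA pair could not be checked in that way. Alternatives tried were TPM, a pseudocount of 0.1, a filter at 5 RPKM or none, quantile normalization, median centring, no trend, robust estimation, voom on the reads and leaving out a TUDCA library.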

Additional observations from a re-analysis of the deposited data

How the results depend on the processing

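The count of genes changed was 299 and became 0 without the filter, where 1696 of 19146 genes had an unadjusted p below 0.05. Members called went from 0 to 1 (Cps1) with a pseudocount of 0.1, without the trend, with robust estimation and with voom, at log2 fold changes of 1.15, 0.94, 0.94 and 1.18, and the cause was not tested. Median centring, a shift of -0.074 for every gene, turned Asl to -0.043 and Arg1 to -0.025, and quantile normalization turned Arg1 to -0.019. With a pseudocount of 0.1 the rule of size took in 225 genes and 1 member (Cps1) in place of 119 and 0.

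Without a TUDCA replicate no residual degree of freedom was left, so these are values with no test. The rule of size then took in 188 to 284 genes and 0 members. The log2 fold changes were 0.91 to 0.97 for Cps1, 0.24 to 0.42 for Otc, -0.28 to -0.08 for Ass1, -0.12 to 0.18 for Asl, 0.04 to 0.06 for Arg1, -0.60 to -0.44 for Nags, -0.04 to 0.40 for Slc25a15, -0.31 to -0.02 for Slc25a13, -0.01 to 0.18 for Glul and -0.28 to -0.12 for Gls2. Shares beside the paralogs moved by -8.89 to -8.17 percentage points for Arg1, -2.97 to 1.72 for Slc25a13 and 3.50 to 7.87 for Slc25a15.

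At a filter of 5 RPKM Cps1 and Otc were not tested. No paired analysis was possible because DMSO has 1 library. The single DMSO library and the low reads of Otc limit the precision.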
